A study of Mus musculus with 52 samples.

Results

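Integrins are the transmembrane receptors, and laminins the ligands, through which vascular endothelial cells (ECs) hold on to their basement membrane. The genes described here were chosen by symbol alone: protein-coding genes named Itga or Itgb plus a digit or letter, and those named Lama, Lamb or Lamc plus a digit. The rule found 38 members, 27 integrin chains and 11 laminin chains, of 21885 protein-coding genes in the files. It left out Itgb1bp1, Itgb1bp2, Itgb3bp and Itgbl1, whose symbols carry further letters and whose products are not integrin chains.

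The study asked how stabilizing beta-catenin in ECs alters vessels that lack a blood-brain barrier, with barrier-bearing vessels of the cerebellum and cortex as the comparison. It holds 40 RNA libraries and 12 ATAC-seq libraries from adult male mice, in 26 groups of 2 libraries. For 24 RNA libraries, cells of the cerebellum, anterior pituitary and posterior pituitary were sorted by GFP into GFP-positive cells (labelled vascular endothelial) and GFP-negative cells (labelled non-endothelial, called parenchyma here). The WT mice of that experiment carried Tie2-GFP, and the beta-catenin stabilized mice carried Tie2-GFP; Pdgfb-CreER; BcatEx3fl and had received 4HT as pups, so the sorted genotypes also differed in Cre and in 4HT. The other 16 RNA libraries are RiboTag libraries of cortex and choroid plexus, with RNA from immunoprecipitated ribosomes (bound) and from the whole tissue (input). There the WT mice carried RiboTag; Pdgfb-CreER, the stabilized mice carried BcatEx3fl in addition, and both had received 4HT. BcatEx3fl is a Ctnnb1 allele that loses exon 3, and with it the sites that mark beta-catenin for destruction, once CreER is active in cells that express Pdgfb, which in the vasculature are mainly ECs. Tie2 (Tek) is an endothelial receptor gene that some blood-derived cells also use. Gene sums do not resolve exon 3, so deletion was not checked here. Pituitaries and choroid plexi were pooled over mice within a replicate, and the mouse strain is not given in the sources used here.

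An integrin is a pair of an alpha and a beta chain. The product of Itgb1 pairs with many alpha chains, among them the laminin receptors (Itga3, Itga6, Itga7), the collagen receptors (Itga1, Itga2, Itga10, Itga11), the fibronectin receptor Itga5, and Itga4 and Itga9. The product of Itgav pairs with several beta chains (Itgb3, Itgb5, Itgb6, Itgb8) that bind vitronectin, fibronectin or latent TGF-beta. Itgb2 with Itgal, Itgam, Itgax or Itgad forms the leukocyte integrins, Itga2b is the platelet chain, and Itgae pairs with Itgb7 on lymphocytes. A laminin is a trimer of 1 alpha, 1 beta and 1 gamma chain, and vascular basement membranes are known to be built mainly from trimers that hold the products of Lama4 or Lama5 with those of Lamb1 or Lamb2 and Lamc1.

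Estimated reads per library ran from 6409013 to 37529274 (median 21838321), and from 17260078 to 33458597 in the sorted ECs. Summed levels of 10 endothelial marker genes were 7645 to 18478 normalised CPM (reads scaled to library size) in the 12 GFP-positive libraries against 17.6 to 122 in the GFP-negative ones. GFP-positive anterior pituitary libraries also held 3331 to 6010 CPM of 8 endocrine markers, and the GFP-negative WT posterior pituitary libraries held 87531 and 59278 CPM of them. RiboTag bound RNA was a mixture: WT choroid plexus bound libraries held 42699 and 42197 CPM of 5 epithelial markers beside 2701 and 3534 CPM of endothelial markers, and WT cortex bound libraries held 6042 and 4354 CPM of 8 microglial markers beside 3210 and 1377 CPM of endothelial markers. In WT cerebellum, replicate 2 carried choroid plexus epithelial markers at 99.2 CPM in GFP-positive and 7509 CPM in GFP-negative cells, against 0.715 and 0.339 CPM in replicate 1. Labels of stabilized anterior pituitary GFP-positive replicate 2 name the anterior pituitary in the title and source and the posterior pituitary in the tissue tag, and it was taken as anterior. Below, samples are compared on CPM scaled by library, with edgeR's quasi-likelihood test and Benjamini-Hochberg adjustment over all genes of a fit, and called genes are those that reached both a fold of at least 2 and an adjusted p below 0.05. Comparisons that use the same WT libraries are not independent of each other, and in these bulk libraries fewer cells of a type and less RNA per cell cannot be told apart.

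Levels of different genes were compared on CPM per kb of transcript. On this scale Itgb1, the shared beta chain, stood first in the WT sorted ECs of each tissue, at 191 ± 74.9 (SD, n = 2) CPM per kb in cerebellum, 163 ± 1.03 in anterior pituitary and 223 ± 87.6 in posterior pituitary. Of the alpha chains, Itga6, a laminin receptor, had the highest mean in each, at 84.3 ± 13.6, 102 ± 11.0 and 80.1 ± 8.82 CPM per kb. Itga1, a collagen receptor that also binds laminin, reached 48.0 ± 0.364 CPM per kb in cerebellum and 67.9 ± 26.8 in posterior pituitary, where its libraries (49.0 and 86.9) overlapped those of Itga6 (86.4 and 73.9). Among laminin chains, Lamc1 stood at 69.7 ± 37.4, 71.4 ± 21.1 and 87.3 ± 43.6 CPM per kb, and Lama4 at 54.7 ± 17.8, 54.6 ± 9.71 and 51.2 ± 7.72. Lamb2 reached 71.9 ± 7.38 in cerebellum, 29.5 ± 0.91 in anterior pituitary and 62.9 ± 7.29 in posterior pituitary. In cerebellum the Lamc1 libraries, at 43.3 and 96.2 CPM per kb, spanned the values of Lamb2 and Itga6, so the order of these 3 was not resolved. Lama4 exceeded Lama5 in each of these tissues, the latter at 11.5 ± 2.46, 7.1 ± 0.0606 and 19.9 ± 10.7 CPM per kb.

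Bound RNA gave another order. In WT cortex, Itgb5 stood at 98.4 ± 26.5 CPM per kb, Itgb1 at 90.6 ± 22.5, the leukocyte chain Itgam at 63.5 ± 16.7 and Itga6 at 60.8 ± 25.4. Replicates of neighbours in that order overlapped for Itgb5 with Itgb1, for Itgb1 with Itgam and for Itgam with Itga6. WT choroid plexus had Lamb1 first, at 74.3 ± 6.69 CPM per kb, followed by Itgb1 at 55.4 ± 15.5, Itgb5 at 38.1 ± 0.539, Lamb2 at 32.1 ± 1.64, Itga6 at 30.9 ± 5.82 and Itgb8 at 30.2 ± 3.82. The last 3 of these overlap. At the bottom of the order, Itgb2l had no read in any of the 12 sorted EC libraries, and Itgad, Itgae and Lamb3 averaged at most 0.327, 0.123 and 0.702 CPM in any sorted EC group. In the plot of levels per kb, the laminin chains Lama4, Lamb2 and Lamc1 and the integrin chains Itga6 and Itgb1 are among the highest in the sorted ECs, while the leukocyte chains Itgam and Itgb2 are high in cortex bound RNA.

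**Figure D1:**
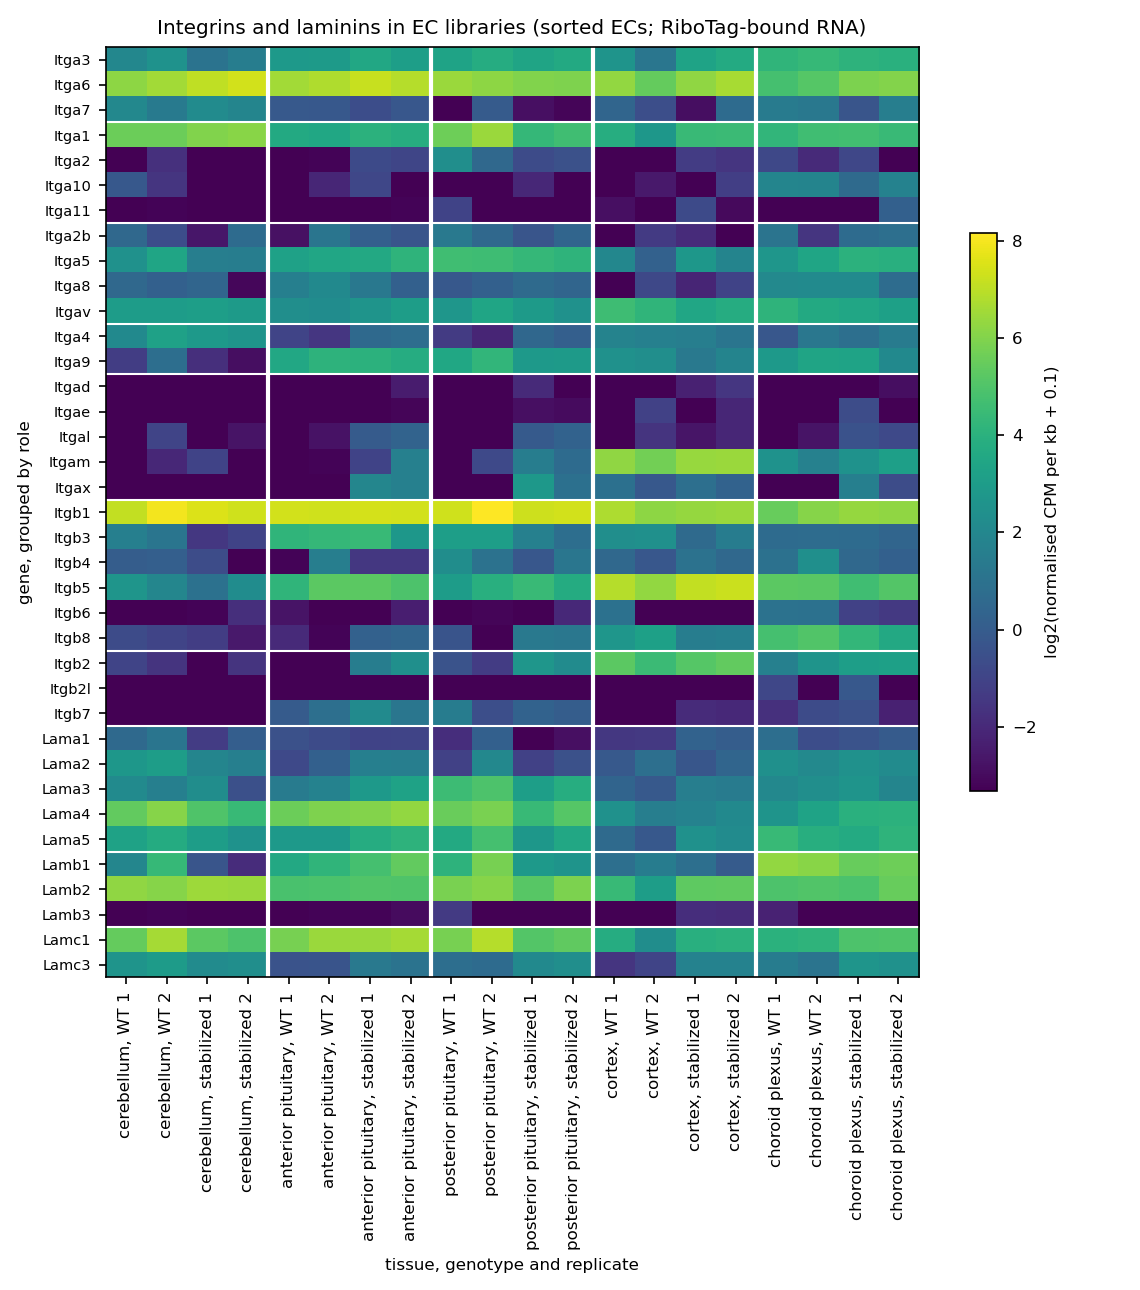
Level of the members reported here, grouped by role, in the 20 EC libraries (12 sorted GFP-positive and 8 RiboTag bound), as log2 of normalised CPM per kb of transcript plus 0.1. On this scale Itgb1 is highest in WT sorted ECs (163 to 223 CPM per kb on average), and Lamb1 is highest in WT choroid plexus bound RNA (74.3 CPM per kb). On the deposited TPM, Lamb2 or Lamc1 exceeds Itgb1 in each sorted tissue.

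In WT tissue, sorted ECs were first set against the GFP-negative cells of the same tissue, and bound RiboTag RNA against the input RNA of the whole tissue, which holds ECs too. Itga1, Itga6, Lama5 and Lamb2 were called higher in the GFP-positive or bound RNA in each of 5 such comparisons, the 3 sorted tissues and the 2 RiboTag tissues. Of the tested members, 9 rose and 4 fell in cerebellum, where 11.3% of all genes were called (4.46% higher, 6.89% lower). In anterior pituitary 10 rose and 5 fell, with 11.3% of all genes called (5.46% higher, 5.87% lower). In posterior pituitary 14 rose and 1 fell, with 14.5% of all genes called (7.07% higher, 7.45% lower). Bound RNA against input gave 13 higher and 0 lower in cortex, where 11.6% of all genes were called (7.46% higher, 4.18% lower). Choroid plexus gave 10 higher and 1 lower, with 15.3% of all genes called (8.67% higher, 6.64% lower). The fractions compared come from the same starting material. With same-numbered fractions taken as pairs, an alternative chosen after seeing the data, the counts were 12 in cerebellum, 13 in anterior and 14 in posterior pituitary, 13 in cortex and 11 in choroid plexus. The calls that ended were Itga4 and Itgax in cerebellum (adjusted p = 0.117 and 0.129), Itgax and Itgb2 in anterior pituitary (0.14 and 0.0554), Itgb2 in posterior pituitary (0.101) and Itgb3 in choroid plexus (0.0567), and Lama2 in cerebellum (-2.28, adjusted p = 0.0415) and Itga9 in choroid plexus (1.04, adjusted p = 0.0347) were called with the pairs.

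The collagen receptor chain Itga1 measured 16.7 and 28.6 CPM in GFP-negative and 513 and 505 CPM in GFP-positive cerebellum. In anterior pituitary the values were 4.74 and 5.82 against 130 and 121 CPM. Posterior pituitary gave 0.0824 and 1.28 against 516 and 918 CPM. The groups were far apart in each tissue, with log2 fold changes of 4.49 (SE 0.77, edgeR adjusted p = 0.000665) in cerebellum, 4.57 in anterior pituitary and 10.13 in posterior pituitary. Itga6 rose by 2.24, 4.4 and 2.92 on the log2 scale in the same order. For the chains of the vascular laminins, Lama4 measured at most 29.8 CPM against 250 and 389 CPM in cerebellum, 18.0 and 9.99 against 279 and 361 CPM in anterior pituitary, and 13.4 and 18.1 against 266 and 330 CPM in posterior pituitary. GFP-positive libraries held more in every pair of groups, with log2 fold changes of 3.8, 4.51 and 4.24. Lama5 rose by 3.42, 3.86 and 4.48, Lamb2 by 2.08, 2.64 and 3.59, and Lamc1 by 2.35, 2.84 and 2.32. Mural markers (9 genes) were higher in GFP-positive cells too, with 814 and 572 against 3475 and 3211 CPM in cerebellum. They stood at 175 and 141 against 807 and 926 CPM in anterior and 48.5 and 20.5 against 574 and 552 CPM in posterior pituitary. The part of mural cells in these rises was not tested.

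Itgb8, which with the product of Itgav activates latent TGF-beta and is known from astroglia and epithelia, was the member called lower in ECs of each sorted tissue. It measured 486 and 398 CPM in GFP-negative and 4.21 and 3.28 CPM in GFP-positive cerebellum, with no overlap, a log2 fold change of -6.88. The log2 changes in the pituitary lobes were -3.99 (anterior) and -4.6 (posterior). Lama2, a chain of muscle and mural basement membranes, fell in anterior pituitary (63.6 and 39.4 against 4.43 and 9.79 CPM, log2 fold change -2.86). In bound RNA the calls that rose in cortex included Itgam (8.28 and 10.9 CPM in input, 290 and 217 CPM in bound, log2 fold change 4.72), Itgax (3.95) and Itgb2 (4.27) beside Itga1 (3.54) and Itga6 (3.22). The 8 microglial markers went the same way, from 213 and 209 CPM in cortex input to 4958 and 3902 CPM in bound RNA on the same scale, and their part in the 3 leukocyte chains was not tested. Choroid plexus bound RNA was lower than input in Lamc3, with 40.1 and 30.8 CPM in input and 14.1 and 10.7 CPM in bound (log2 fold change -1.51, SE 0.4, adjusted p = 0.0181).

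The WT sorted ECs of cerebellum and anterior pituitary differed in 8 of 33 tested members, 5 higher and 3 lower in cerebellum, where 5.26% of 17915 genes were called (3% higher, 2.26% lower). The median log2 difference of the 33 members was 0.23. It was 0.32 over 31 of them, with genes at 0 in 1 group set to their bound and members of too few reads for a bound left out. Against posterior pituitary, cerebellum was higher in 2 members and lower in 3 (4.4% of all genes called, 2.3% higher and 2.1% lower). Between the pituitary lobes 1 member was called, lower in the anterior lobe (0.994% of all genes, 0.34% higher and 0.653% lower). The lobes come from the same pools of mice, and with same-numbered lobes taken as pairs 2 members were called, Itga1 and Lama3 (-3.18, adjusted p = 0.0378, against 0.0546 without the pairs).

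Among alpha chains, Itga4, which with the product of Itgb1 binds Vcam1 and fibronectin, measured 41.6 and 91.1 CPM in cerebellum, 4.02 and 2.42 CPM in anterior pituitary and 2.87 and 1.28 CPM in posterior pituitary. Both cerebellum libraries lay above the 4 pituitary libraries. The log2 difference was 4.36 (SE 0.6, adjusted p = 0.00064) from anterior and 4.98 (SE 0.62, adjusted p = 0.000391) from posterior pituitary. Itga9, a relative of Itga4 that binds Vcam1, tenascin and extra-domain fibronectin, ran the other way, with 2.23 and 11.9 CPM in cerebellum, 81.5 and 118 CPM in anterior pituitary and 79.0 and 130 CPM in posterior pituitary. These groups did not overlap, at log2 differences of -3.83 (SE 0.75, adjusted p = 0.00848) and -3.9 (SE 0.76, adjusted p = 0.00897), and the estimate against anterior pituitary ran from -5.48 to -3.09 over the processing alternatives. The Itga9 call ended against anterior pituitary with the authors' effective lengths as offsets (adjusted p = 0.0518) and against posterior pituitary in a fit to the compared groups alone (adjusted p = 0.0817). Itga1 measured 523 and 529 CPM in cerebellum, 135 and 124 CPM in anterior pituitary and 537 and 953 CPM in posterior pituitary. Anterior pituitary was the low tissue for Itga1, with a log2 difference of 2.02 (SE 0.29, adjusted p = 0.000898) from cerebellum and -2.52 (SE 0.3, adjusted p = 0.000951) from posterior pituitary. Itga5, the fibronectin receptor chain, measured 23.7 and 47.0 CPM in cerebellum against 110 and 107 CPM in posterior pituitary. The groups stood apart (log2 difference -1.61, SE 0.36, adjusted p = 0.0215), though the call ended without WT cerebellum replicate 1 (-1.21, adjusted p = 0.249), with the offsets (adjusted p = 0.497) and in a fit to the compared groups alone (adjusted p = 0.148).

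Of the beta chains, Itgb3, the vitronectin receptor chain, measured 17.4 and 12.0 CPM in cerebellum and 104 and 115 CPM in anterior pituitary. Itgb5, another partner of Itgav, measured 19.4 and 11.5 CPM against 56.3 and 118 CPM. Both were lower in cerebellum without overlap, by log2 differences of -2.9 (SE 0.53, adjusted p = 0.00532) for Itgb3 and -2.49 (SE 0.55, adjusted p = 0.0165) for Itgb5. The Itgb5 call ended without WT anterior pituitary replicate 2 (-1.85, adjusted p = 0.105) or WT cerebellum replicate 2 (-2.16, adjusted p = 0.0756), and with the length offsets (-3.2, adjusted p = 0.069). The common partner Itgb1 had log2 differences of 0.23 (SE 0.32), -0.22 (SE 0.32) and -0.45 (SE 0.32) in the 3 tissue comparisons, none of them called.

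For laminins, Lamc3, a gamma chain known from the vascular and meningeal membranes of the brain, measured 35.6 and 45.3 CPM in cerebellum, 3.93 and 4.02 CPM in anterior pituitary and 9.82 and 9.0 CPM in posterior pituitary. Cerebellum was above both lobes, by a log2 difference of 3.34 (SE 0.51, adjusted p = 0.00132) from anterior and 2.1 (SE 0.48, adjusted p = 0.0255) from posterior pituitary. The first of these calls ended with the length offsets (3.08, adjusted p = 0.162). The second ended with the offsets too (1.67, adjusted p = 0.465), without an expression filter (adjusted p = 0.058), in a fit to the compared groups alone (adjusted p = 0.11) and without any 1 of its 4 libraries: without cerebellum replicate 1 or 2 the adjusted p was 0.125 or 0.248, and without posterior pituitary replicate 1 or 2 it was 0.0592 or 0.11. Lamb2 measured 434 and 375 CPM in cerebellum and 162 and 170 CPM in anterior pituitary (log2 difference 1.29, SE 0.27, adjusted p = 0.0119), without overlap. That call ended without WT anterior pituitary replicate 1 (1.25, adjusted p = 0.0917) or 2 (1.32, adjusted p = 0.0689) or cerebellum replicate 1 (1.16, adjusted p = 0.0551), and with the length offsets the difference was 0.06 (adjusted p = 1). Lama2 measured 63.1 and 79.8 CPM in cerebellum and 4.6 and 10.1 CPM in anterior pituitary (log2 difference 3.28, SE 0.86, adjusted p = 0.046). Its groups stood apart, and the call ended without anterior pituitary replicate 1 (2.82, adjusted p = 0.203) or 2 (3.96, adjusted p = 0.0559) or cerebellum replicate 2 (3.11, adjusted p = 0.0691), or with the length offsets (3.57, adjusted p = 0.0625). Mural marker genes, 9 in number and none at 0, summed to 3544 and 3361 CPM in WT cerebellum ECs, 837 and 954 CPM in anterior and 598 and 573 CPM in posterior pituitary, and their part in the Lama2 and Itga1 differences was not tested.

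Lama3, an alpha chain of epithelial and some vascular laminins, measured 47.1 and 31.3 CPM in cerebellum, 28.2 and 34.4 CPM in anterior pituitary and 243 and 327 CPM in posterior pituitary. The posterior pituitary libraries were the highest, with a log2 difference between cerebellum and posterior pituitary of -2.86 (SE 0.69, adjusted p = 0.033). The call ended without cerebellum replicate 2 (-2.6, adjusted p = 0.0733) or posterior pituitary replicate 2 (-2.62, adjusted p = 0.0526). In GFP-negative posterior pituitary Lama3 measured 28.4 and 18.4 CPM, below the GFP-positive cells. In the plot of tissue differences, Itga4 and Lamc3 lie furthest towards cerebellum, and Itga9 furthest towards the pituitary lobes, among the members called in sorted ECs.

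**Figure D2:**
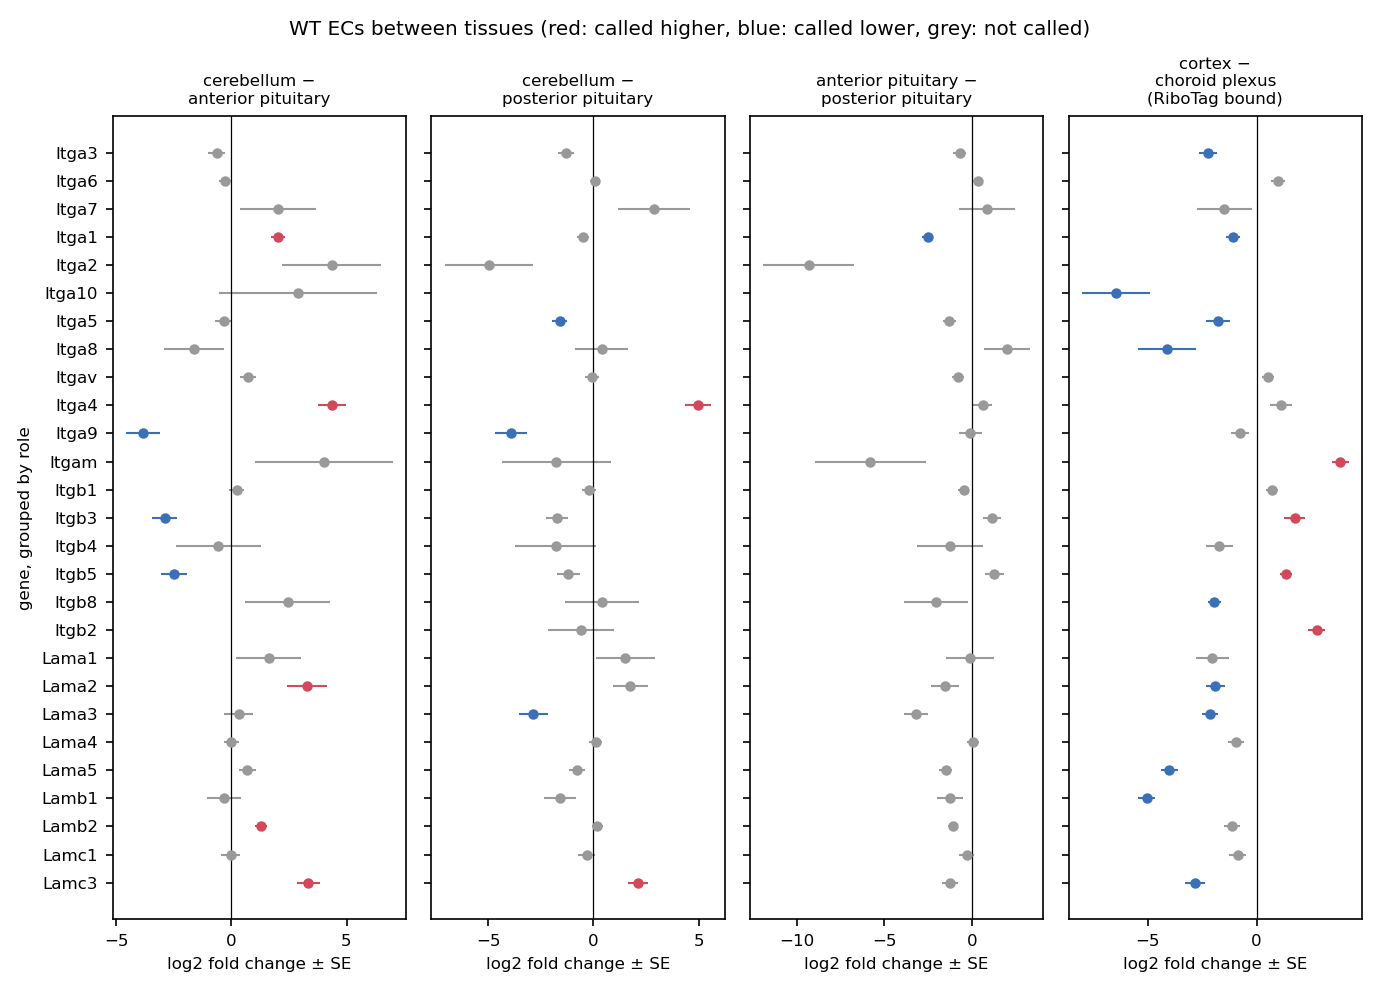
Log2 difference in normalised CPM, with SE bars, between WT tissues for members averaging at least 10 CPM in a WT EC group, with members at 0 in a group left out; red marks members called higher in the first-named tissue, blue lower, grey not called. Itga4 is higher in cerebellum than in either pituitary lobe (4.36 and 4.98), and Lamb1 is lower in cortex than in choroid plexus bound RNA (-5.06).

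WT bound RNA of cortex and choroid plexus differed more widely, with 5 members called higher in cortex and 11 lower of 33 tested, where 29.7% of 16775 genes were called (15.8% higher, 13.9% lower). The median log2 difference was -1.09 for the members, -1.96 for the laminins and 0.01 for all genes. Leukocyte chains made up 3 of the 5 that were higher in cortex. Itgam measured 353 and 242 CPM in cortex and 26.2 and 14.8 CPM in choroid plexus (log2 difference 3.86, SE 0.38, adjusted p = 0.000113), without overlap. Itgb2 measured 115 and 66.8 CPM against 9.24 and 17.7 CPM (log2 difference 2.76, SE 0.39, adjusted p = 0.000752). Itgax had 7.14 and 3.23 CPM in cortex and no read in choroid plexus, which makes it at least 12.5-fold higher (adjusted p = 0.00977). All 8 microglial marker genes were called higher in cortex bound RNA too, summing to 6042 and 4354 CPM against 303 and 399 CPM, and their part in these 3 differences was not tested.

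Itgb5, at 362 and 246 CPM in cortex and 119 and 116 CPM in choroid plexus, was higher in cortex (log2 difference 1.37, SE 0.27, adjusted p = 0.00416). Itgb3, at 29.3 and 30.5 CPM against 8.82 and 8.97 CPM, had a log2 difference of 1.75 (SE 0.47, adjusted p = 0.0197) that lost its call without any 1 of the 4 libraries, the adjusted p then being 0.0587 without cortex replicate 1, 0.0871 without cortex replicate 2, 0.113 without choroid plexus replicate 1 and 0.1 without choroid plexus replicate 2. Both groups of values were apart for each chain. The microglial markers, at 6042 and 4354 against 303 and 399 CPM, differ the same way, and in sorted WT cerebellum ECs Itgb5 was at 19.4 and 11.5 CPM and called lower than in GFP-negative cells (-2.44, adjusted p = 0.00537). The part of microglial RNA in both differences was not tested. With the length offsets neither was called, at 0.99 (adjusted p = 0.13) for Itgb5 and 1.48 (adjusted p = 0.103) for Itgb3. Itga6, at 339 and 185 CPM against 116 and 151 CPM, had a log2 difference of 0.97 (SE 0.32, adjusted p = 0.0431), under the fold needed for a call.

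Laminin chains were lower in cortex. Lamb1 measured 10.0 and 15.6 CPM in cortex and 457 and 403 CPM in choroid plexus, and Lama5 16.6 and 8.98 CPM against 244 and 167 CPM. Log2 differences were -5.06 (SE 0.38, adjusted p = 3.46e-05) for Lamb1 and -4.01 (SE 0.38, adjusted p = 9.32e-05) for Lama5. Lamc3 measured 1.41 and 2.46 CPM against 16.1 and 12.0 CPM (-2.84, SE 0.46, adjusted p = 0.00163), Lama3 12.6 and 8.77 CPM against 41.8 and 52.7 CPM (-2.15, SE 0.36, adjusted p = 0.00205), and Lama2 7.81 and 16.4 CPM against 51.3 and 39.6 CPM (-1.9, SE 0.44, adjusted p = 0.00993). None of these 5 chains overlapped between tissues. In choroid plexus input, the whole tissue, Lamb1 was at 322 and 365 CPM beside 399 and 360 CPM in bound RNA on the same scale, while Lama3 was at 3.55 and 4.48 CPM beside 36.4 and 47.1 CPM. All 5 choroid plexus epithelial markers were called lower in cortex bound RNA, at 20.9 and 8.88 CPM against 42699 and 42197 CPM, and their part in these laminin differences was not tested.

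The remaining calls were integrin chains lower in cortex. Itgb8 measured 53.8 and 77.1 CPM in cortex and 231 and 276 CPM in choroid plexus (log2 difference -1.95, SE 0.3, adjusted p = 0.00113). Itga3, a laminin receptor of epithelia and vessels, measured 29.3 and 10.5 CPM against 88.7 and 98.6 CPM (-2.24, SE 0.43, adjusted p = 0.00402). Both were apart. Itga10, a collagen receptor chain, had 0 and 7 estimated reads in cortex and 131 and 130 in choroid plexus (-6.47, SE 1.57, adjusted p = 0.0121), and Itga8, a receptor for nephronectin, measured 0 and 2.72 CPM against 23.7 and 25.5 CPM (-4.14, SE 1.34, adjusted p = 0.0421). Itga1, at 152 and 73.0 CPM against 203 and 275 CPM, and Itga5, at 17.1 and 4.72 CPM against 28.5 and 46.0 CPM, were lower by 1.09 (SE 0.34, adjusted p = 0.0363) and 1.78 (SE 0.57, adjusted p = 0.0408) on the log2 scale. Values were apart between the tissues for each of these 4 genes. Calls that a single library ended were Itga8 without choroid plexus replicate 1 (-4.28, adjusted p = 0.052) or 2 (-4.14, adjusted p = 0.0594), Itga1 without choroid plexus replicate 2 (-0.93, adjusted p = 0.118) or cortex replicate 2 (-0.71, adjusted p = 0.0935), and Itga5 without choroid plexus replicate 2 (-1.48, adjusted p = 0.117) or cortex replicate 2 (-1.18, adjusted p = 0.0939). Length offsets ended the calls of Itga10 (-2.99, adjusted p = 0.113), Itga8 (-3.2, adjusted p = 0.0979) and Itga5 (-1.11, adjusted p = 0.194), and a fit to the 4 WT libraries alone ended those of Itga1 (adjusted p = 0.0862), Itga5 (adjusted p = 0.09) and Itga8 (adjusted p = 0.0763).

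Stabilizing beta-catenin was then compared with WT within each tissue. In cerebellum ECs 2 of 33 members were called, Lamb1 and Itgb3, both lower, where 0.648% of all genes were called, and 0.581% as lower. The 33 members had a median log2 fold change of -0.71 against -0.08 for all genes. The members' median was -0.97 over 30 of them, with genes at 0 in 1 group at their bound and members of too few reads for a bound left out. The 9 mural markers went from 3544 and 3361 CPM to 2467 and 2308 CPM in these ECs, and their part in the median was not tested. Lamb1 (ENSMUSG00000002900, chr12:31265234-31329644), the beta chain of vascular and epithelial laminins, measured 21.4 and 119 CPM in WT and 4.13 and 1.0 CPM in stabilized cerebellum ECs. The stabilized libraries lay below both WT libraries, which themselves differed widely (log2 fold change -4.76, SE 0.88, adjusted p = 0.0302). The value was -3.05 (adjusted p = 0.0154) without WT replicate 2, the library with choroid plexus epithelial markers at 99.2 CPM, and -5.48 (adjusted p = 2.4e-05) without WT replicate 1. In GFP-negative cerebellum Lamb1 measured 6.58 and 101 CPM in WT and 11.3 and 4.76 CPM in stabilized mice, high in the same replicate as the epithelial markers. Summed fibroblast markers (6 genes, 3 at 0 in both stabilized libraries) went from 26.2 and 34.5 CPM to 3.43 and 0.773 CPM in the GFP-positive cells, and their part in the Lamb1 difference was not tested. Itgb3 (ENSMUSG00000020689, chr11:104608000-104670476) measured 17.4 and 12.0 CPM in WT and 1.5 and 2.27 CPM in stabilized cerebellum ECs. It fell without overlap (log2 fold change -2.96, SE 0.55, adjusted p = 0.0309). A fit to the 4 cerebellum libraries alone called neither gene (adjusted p = 0.434 for both), at log2 fold changes of -4.74 for Lamb1 and -2.95 for Itgb3, and the length offsets ended the Itgb3 call (-2.93, adjusted p = 0.0939).

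Anterior pituitary ECs had 0 of 33 members called by edgeR (0.458% of all genes called), 9 at an unadjusted p under 0.05 (6.99% of all genes) and 5 by DESeq2 (2.78%). The members' median log2 fold change was 0.56 against 0.06 for all genes, and 9 of 10 laminins had a positive value. The 6 fibroblast markers went from 38.7 and 21.6 CPM to 86.1 and 55.3 CPM and the 9 mural markers from 837 and 954 CPM to 1134 and 1042 CPM (1 of 9 called higher, Rgs5), and their part in these values was not tested. Lamc3 measured 3.93 and 4.02 CPM in WT and 14.1 and 11.4 CPM in stabilized ECs (1.68, SE 0.48, adjusted p = 0.263). Itga4 measured 4.02 and 2.42 CPM against 13.7 and 15.7 CPM (2.19, SE 0.55, adjusted p = 0.16), and Lama5 81.3 and 80.3 CPM against 158 and 195 CPM (1.12, SE 0.39, adjusted p = 0.475). The groups did not overlap for these 3 genes, and none passed the adjusted threshold.

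In posterior pituitary ECs 2 of 33 members were called, 1 lower and 1 higher, where 1.79% of all genes were called (0.541% lower, 1.25% higher). The members' median log2 fold change was -0.48 against 0.01 for all genes, and 9 of 10 laminins had a negative value. Itga1 (ENSMUSG00000042284, chr13:114953096-115101964) measured 537 and 953 CPM in WT and 217 and 269 CPM in stabilized ECs. The genotypes did not overlap (log2 fold change -1.62, SE 0.29, adjusted p = 0.0154). Both stabilized values lay above the 135 and 124 CPM of WT anterior pituitary and below both values of WT cerebellum. The call ended without WT replicate 2 (-1.12, adjusted p = 0.065) or stabilized replicate 1 (-1.48, adjusted p = 0.109). Itga4 (ENSMUSG00000027009, chr2:79255426-79333123) rose from 2.87 and 1.28 CPM to 12.9 and 9.91 CPM, with both stabilized libraries above both WT libraries and below the 41.6 and 91.1 CPM of WT cerebellum (log2 fold change 2.44, SE 0.56, adjusted p = 0.049). WT counts behind it were 92 and 21 reads, and the call ended without WT replicate 2 (2.02, adjusted p = 0.2), stabilized replicate 1 (2.24, adjusted p = 0.201) or stabilized replicate 2 (2.62, adjusted p = 0.0746). Summed endothelial markers went from 15694 and 18478 CPM to 7645 and 9009 CPM between these genotypes, with 2 of 10 called lower, and their part in the Itga1 difference was not tested. Neither was called in a fit to the 4 posterior pituitary libraries alone (-1.59, adjusted p = 0.168 for Itga1 and 2.48, adjusted p = 0.35 for Itga4) or with the length offsets (-1.35, adjusted p = 0.113 and 3.05, adjusted p = 0.0782).

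None of the 10 laminin chains tested in posterior pituitary ECs was called, with 7 at an unadjusted p under 0.05 (12.9% of all genes). Among these 7 were Lamb1, at 98.3 and 322 CPM in WT and 40.7 and 34.9 CPM in stabilized ECs (-2.48, SE 0.78, adjusted p = 0.161), Lamc1, at 430 and 900 CPM against 257 and 311 CPM (-1.23, SE 0.41, adjusted p = 0.192), and Lamc3, at 9.82 and 9.0 CPM against 24.9 and 28.9 CPM (1.51, SE 0.48, adjusted p = 0.161). The genotypes did not overlap in any of the 3. Itgb3, at 49.1 and 49.0 CPM against 17.7 and 9.72 CPM, was apart as well (-1.84, SE 0.52, adjusted p = 0.111). The plot of sorted EC values shows that Itga4 and Lamc3 were higher in each stabilized pituitary library than in each WT library of that lobe, and that each Itgb3 value in stabilized cerebellum and posterior pituitary lay below both WT values of that tissue.

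**Figure D3:**
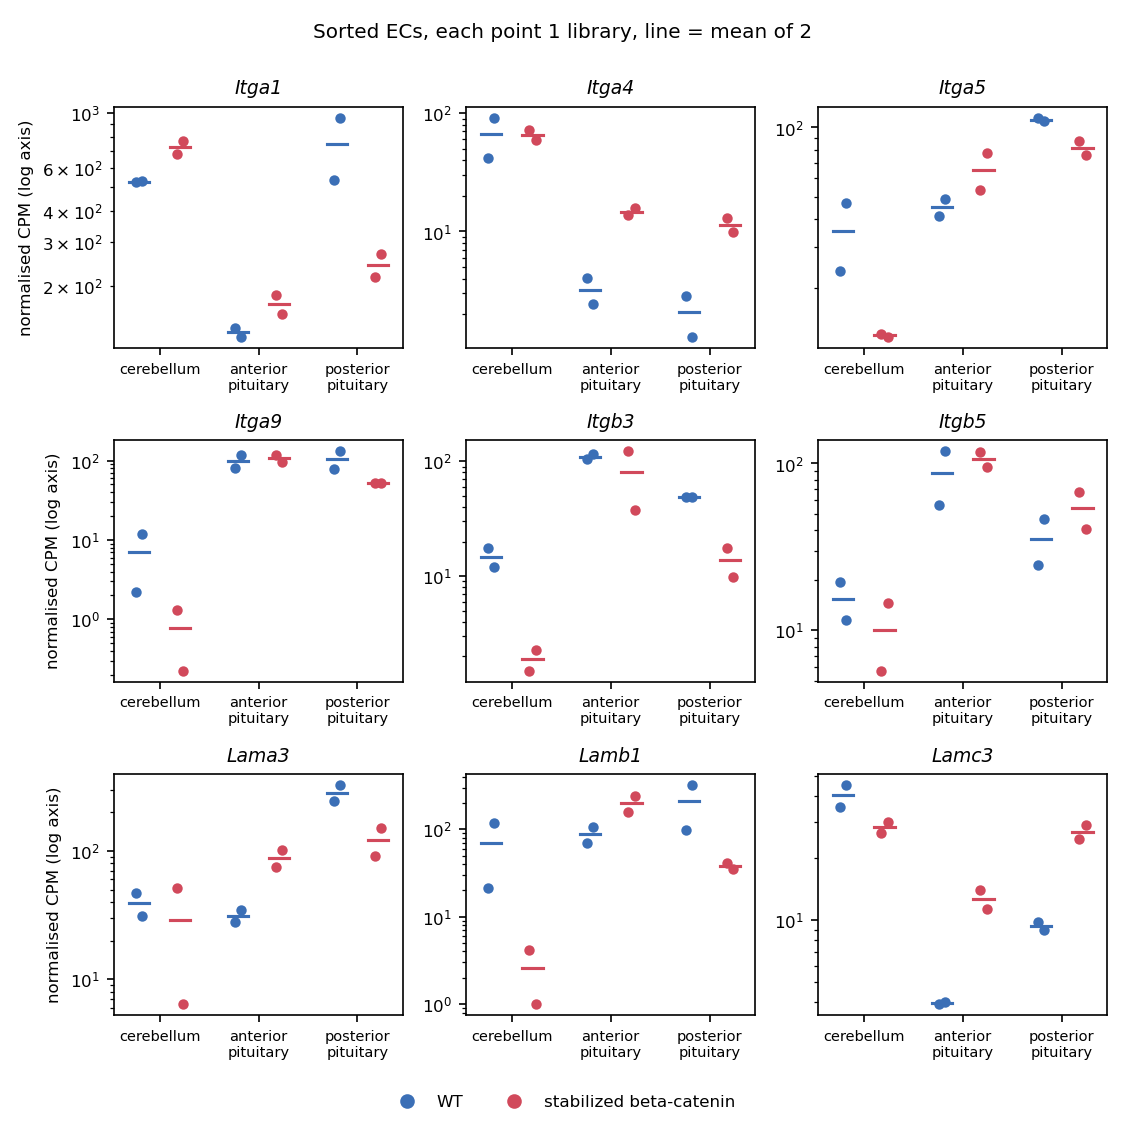
Normalised CPM (log axis) of 9 members in each sorted GFP-positive library, by tissue and genotype, each point 1 library. Itga4 stands at 1.28 to 4.02 CPM in WT pituitary ECs, 9.91 to 15.7 CPM in stabilized pituitary ECs and 41.6 to 91.1 CPM in WT cerebellum ECs.

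Among the leukocyte integrins, Itgax, Itgb2 and Itgam had higher CPM in both stabilized libraries than in both WT libraries of each pituitary lobe, and none of the 3 was called in either lobe. Itgb7, a lymphocyte chain, was read in WT pituitary ECs too, at 2.4 and 4.62 CPM in anterior and 7.27 and 1.52 CPM in posterior pituitary. Itgax measured 0 and 0 CPM in WT anterior pituitary and 15.2 and 12.5 CPM in stabilized, and 0 and 0 against 27.4 and 7.26 CPM in posterior pituitary. Against a floor of 3 reads per library, the stabilized values were at least 151-fold higher in anterior (adjusted p = 0.108) and at least 126-fold higher in posterior pituitary (adjusted p = 0.0536). Neither was called, although no WT pituitary EC library had a read. Itgb2, their shared beta chain, measured 0 and 0 CPM against 8.26 and 15.1 CPM in anterior pituitary, at least 127-fold higher (adjusted p = 0.11), and 1.96 and 0.913 CPM against 19.1 and 13.7 CPM in posterior pituitary. Itgam stood at 0 and 0.0314 CPM against 1.85 and 14.6 CPM, and at 0 and 2.25 CPM against 13.0 and 7.12 CPM. The 8 microglial markers moved with these chains, from 52.0 and 32.1 CPM to 190 and 413 CPM in anterior and from 72.0 and 60.2 CPM to 511 and 350 CPM in posterior pituitary, with 2 and 1 of them at 0 in both WT libraries and 0 at 0 in both stabilized ones. Markers of other leukocytes (10 genes) went from 127 and 135 CPM to 207 and 214 CPM in anterior and from 13.8 and 7.97 CPM to 150 and 93.3 CPM in posterior pituitary. The part of these cells in the leukocyte integrin values, and in the Itga4 values, since Itga4 is a leukocyte gene as well, was not tested.

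In cortex bound RNA 4 of 33 members were called between genotypes, 3 laminin chains higher and Itgb8 lower, where 6.32% of 16775 genes were called (3.65% higher, 2.67% lower). The laminins' median log2 fold change was 1.1 against 0.0 for all genes, with 6 of 10 positive. Lamc3 (ENSMUSG00000026840, chr2:31887291-31946539) measured 1.41 and 2.46 CPM in WT and 19.2 and 19.3 CPM in stabilized mice. Lama5 (ENSMUSG00000015647, chr2:180176373-180225859), an alpha chain of mature vessels known to limit leukocyte passage, measured 16.6 and 8.98 CPM against 62.6 and 51.8 CPM. Both rose without overlap, by 3.29 (SE 0.47, adjusted p = 0.00602) for Lamc3 and 2.16 (SE 0.35, adjusted p = 0.00958) for Lama5, and each stayed called without any 1 of the 4 libraries, at 2.95 to 3.77 and 1.81 to 4.08 over all alternatives. Lama3 (ENSMUSG00000024421, chr18:12333819-12583013) measured 12.6 and 8.77 CPM against 30.3 and 27.5 CPM (1.44, SE 0.36, adjusted p = 0.0466). The call ended without WT replicate 2 (1.22, adjusted p = 0.148) or stabilized replicate 1 (1.34, adjusted p = 0.216) or 2 (1.46, adjusted p = 0.145), with a replicate block (1.45, adjusted p = 0.0543), with the length offsets (1.71, adjusted p = 0.123) and in a fit to the 4 cortex libraries alone (1.48, adjusted p = 0.0532). Itgb8 (ENSMUSG00000025321, chr12:119158022-119238802) fell from 53.8 and 77.1 CPM to 23.6 and 25.0 CPM (-1.43, SE 0.3, adjusted p = 0.0247), a call that ended without WT replicate 2 (-1.13, adjusted p = 0.0541) or stabilized replicate 1 (-1.44, adjusted p = 0.155) or 2 (-1.54, adjusted p = 0.112), or with the length offsets (-1.17, adjusted p = 0.138).

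The makeup of cortex bound RNA moved with genotype. Endothelial markers went from 3210 and 1377 CPM to 4665 and 4713 CPM, with 2 of 10 called higher and none at 0, and astrocyte markers (6 genes) from 2868 and 4580 CPM to 1055 and 1699 CPM. Neuronal markers went from 2078 and 2601 CPM to 1129 and 1028 CPM and oligodendrocyte markers from 2172 and 2151 CPM to 813 and 992 CPM. WT replicate 2 had both the fewest endothelial marker reads and the lowest Itga1 (73.0 CPM), Lama5 and Lamb2 (47.4 CPM). The part of the makeup in the Lamc3, Lama5, Lama3 and Itgb8 calls was not tested. Lamb2, at 118 and 47.4 CPM against 224 and 232 CPM (1.47, SE 0.39, adjusted p = 0.0592), and Itga3, at 29.3 and 10.5 CPM against 48.3 and 62.1 CPM (1.48, SE 0.42, adjusted p = 0.0722), were apart and not called.

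Choroid plexus bound RNA had 0 of 33 members called by edgeR (0.852% of all genes called), 8 at an unadjusted p under 0.05 (13.9% of all genes) and 2 by DESeq2 (3.82%). Lamc3, at 16.1 and 12.0 CPM in WT and 36.9 and 32.0 CPM in stabilized mice, had a log2 fold change of 1.29 (SE 0.43, adjusted p = 0.226). Itga6, at 116 and 151 CPM against 255 and 276 CPM, had 1.0 (SE 0.32, adjusted p = 0.208), and Itgb8, at 231 and 276 CPM against 162 and 102 CPM, had -0.94 (SE 0.29, adjusted p = 0.193). These 3 genes were apart between genotypes. Itgax had no read in WT and 12.2 and 2.2 CPM in stabilized libraries, at least 17.4-fold higher (adjusted p = 0.0863). Epithelial markers went from 42699 and 42197 CPM to 25779 and 23029 CPM and endothelial markers from 2701 and 3534 CPM to 4699 and 4196 CPM, and their part in these values was not tested. As the plot of bound RNA shows, Lamc3 was higher in each stabilized library than in each WT library of the same tissue.

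**Figure D4:**
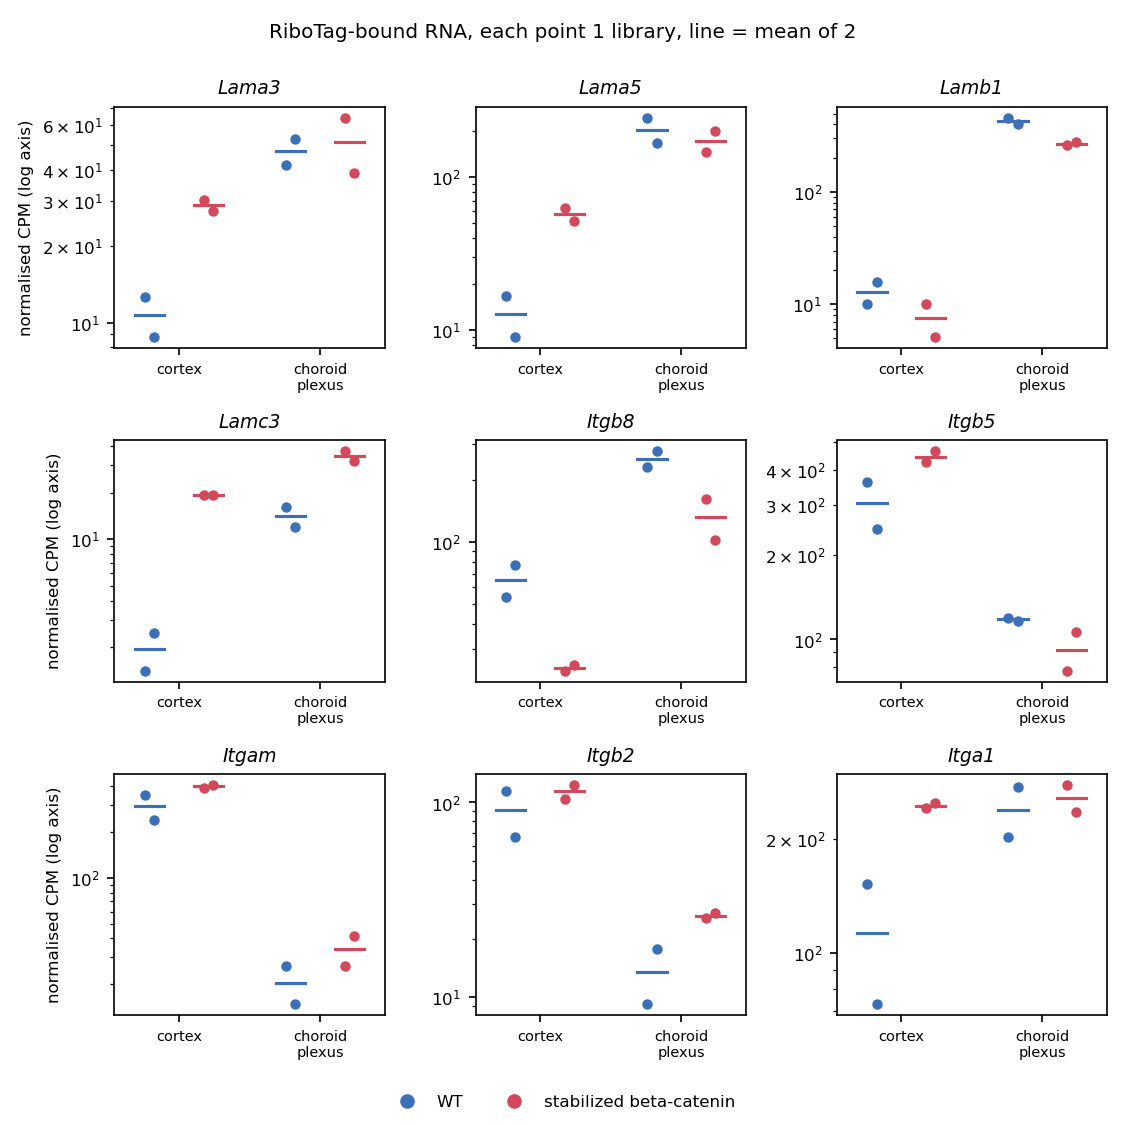
Normalised CPM (log axis) of 9 members in each RiboTag bound library, by tissue and genotype, each point 1 library. Lamc3 rises in cortex from 1.41 and 2.46 CPM to 19.2 and 19.3 CPM, and Itgam is at 242 to 409 CPM in cortex against 14.8 to 41.5 CPM in choroid plexus.

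Whether the genotype difference itself differed between tissues was tested with interaction terms, called at an adjusted p under 0.05. Of the members, 1 was called between anterior pituitary and cerebellum (0.519% of all genes), 1 between posterior pituitary and cerebellum (0.927%), 0 between the pituitary lobes (0.128%, with 9 members and 9.09% of all genes at an unadjusted p under 0.05) and 1 between choroid plexus and cortex bound RNA (2.15%). Lamb1 measured 69.1 and 106 CPM in WT and 158 and 240 CPM in stabilized anterior pituitary, opposite in direction to cerebellum, with a difference of log2 fold changes of 5.94 (SE 1.14, adjusted p = 0.0418). Summed fibroblast markers were lower in stabilized cerebellum ECs and higher in stabilized anterior pituitary ECs too, and their part in this difference was not tested. Itga1 measured 682 and 770 CPM in stabilized cerebellum against 523 and 529 CPM in WT, while it fell in posterior pituitary (difference -2.08, SE 0.4, adjusted p = 0.0341). Without stabilized posterior pituitary replicate 1 the Itga1 difference was -1.94 (adjusted p = 0.0873). Lama5 measured 244 and 167 CPM in WT and 145 and 199 CPM in stabilized choroid plexus, where the genotypes overlap, against the rise in cortex (difference -2.42, SE 0.48, adjusted p = 0.0404). That last call ended without WT choroid plexus replicate 1 (-2.12, adjusted p = 0.07), stabilized choroid plexus replicate 1 (-2.11, adjusted p = 0.0731), or stabilized cortex replicate 1 (-2.17, adjusted p = 0.105) or 2 (-2.43, adjusted p = 0.062).

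The same genotype comparison in GFP-negative cells and in whole-tissue input served as background. In GFP-negative cells edgeR called 0 members in cerebellum (0.76% of all genes called), anterior pituitary (0.0408%) and posterior pituitary (0.133%), of 36 tested in each. At an unadjusted p under 0.05 there were 6, 3 and 10 (10.9%, 5.51% and 9.94% of all genes), and by DESeq2 1, 2 and 6 (4.91%, 1.48% and 4.23%). The members' median log2 fold change in GFP-negative cells was -0.64 in cerebellum, 0.57 in anterior pituitary, where 10 of 11 laminins were positive, and 0.80 in posterior pituitary. In the ECs it was -0.71, 0.56 and -0.48. Medians of all genes were -0.26, 0.07 and 0.13 in GFP-negative cells and -0.08, 0.06 and 0.01 in the ECs. The members' cerebellum medians at the bound, with members of too few reads left out, were -0.62 (34 members) in GFP-negative cells and -0.97 (30) in the ECs. In GFP-negative anterior pituitary the mural markers went from 173 and 137 CPM to 467 and 350 CPM and the fibroblast markers from 386 and 380 CPM to 757 and 646 CPM. In GFP-negative posterior pituitary the mural markers went from 46.8 and 20.0 CPM to 355 and 149 CPM and the fibroblast markers from 272 and 202 CPM to 1011 and 613 CPM. In the ECs the same lists went from 598 and 573 CPM to 393 and 310 CPM (mural) and from 57.0 and 53.4 CPM to 23.0 and 13.5 CPM (fibroblasts), and their part in these medians was not tested. Cortex input had 1, Itga4, at 27.8 and 44.6 CPM in WT and 13.5 and 14.2 CPM in stabilized mice (log2 fold change -1.39, SE 0.25, adjusted p = 0.00657), where 11.8% of all genes were called. Choroid plexus input had 0 (0.106%), with 7 at an unadjusted p under 0.05 (7.41% of all genes) and 2 by DESeq2 (0.808%). In choroid plexus input Itga4 stood the other way, at 1.76 and 1.58 CPM in WT and 5.32 and 7.09 CPM in stabilized mice, without overlap and not called (1.88, SE 0.35, adjusted p = 0.177). The makeup of cortex input moved with genotype, with endothelial markers at 67.2 and 49.9 CPM in WT and 149 and 138 CPM in stabilized mice and astrocyte markers at 4423 and 4611 against 2962 and 3793 CPM, and its part in the Itga4 call was not tested.

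The partners of these chains were listed as 18 other ligands and basement membrane genes and 21 cytoplasmic linkers such as talin, kindlin and the parvins. Between genotypes, calls over all genes stood at 0.648% in cerebellum, 0.458% in anterior and 1.79% in posterior pituitary ECs, 6.32% in cortex and 0.852% in choroid plexus bound RNA. Cerebellum ECs had 1 of 17 tested ligands called lower, Icam1, the counter-receptor of leukocyte integrins (89.0 and 95.2 CPM to 27.1 and 25.0 CPM, log2 fold change -1.82, adjusted p = 0.0251). Anterior pituitary ECs had 2 called higher: Fn1, fibronectin, from 8.38 and 4.81 CPM to 636 and 1199 CPM (7.12, adjusted p = 1.47e-05), and Vcam1, the ligand of the Itga4 and Itga9 receptors, from 0 and 0.0314 CPM to 21.9 and 52.9 CPM (adjusted p = 1.25e-05). Posterior pituitary ECs had the same 2 called higher, Fn1 from 219 and 208 CPM to 3676 and 5146 CPM (4.37, adjusted p = 0.000176) and Vcam1 from 18.3 and 16.7 CPM to 101 and 99.5 CPM (2.52, adjusted p = 0.00993). Microglial markers rose as well, from 52.0 and 32.1 to 190 and 413 CPM in anterior and from 72.0 and 60.2 to 511 and 350 CPM in posterior pituitary. Markers of other leukocytes went from 127 and 135 to 207 and 214 CPM and from 13.8 and 7.97 to 150 and 93.3 CPM. The part of these cells in the Fn1 and Vcam1 rises was not tested. In posterior pituitary ECs Mcam, a laminin-binding adhesion protein of vessels, fell from 341 and 271 CPM to 86.3 and 83.5 CPM (-1.85, adjusted p = 0.027), and of 20 cytoplasmic genes Ptk2, focal adhesion kinase, fell (-1.13, adjusted p = 0.0455). Endothelial markers fell there too (15694 and 18478 to 7645 and 9009 CPM), as did mural markers (598 and 573 to 393 and 310 CPM). Their part in the Mcam and Ptk2 falls was not tested. In bound RNA Fn1 rose in cortex (443 and 228 to 1360 and 1334 CPM, 2.01, adjusted p = 0.0126) and in choroid plexus (163 and 195 to 785 and 1168 CPM, 2.45, adjusted p = 0.0156). Cortex bound RNA also rose in Bcam, Hspg2 (perlecan, 1.84, adjusted p = 0.00338) and Nid2 and in the linkers Lims2, Pxn and Tns1. Endothelial markers went the same way there (3210 and 1377 to 4665 and 4713 CPM), and their part in these rises was not tested. In input RNA of the whole tissue, Fn1 was higher in stabilized choroid plexus as well (21.6 and 24.7 to 106 and 119 CPM, 2.28, adjusted p = 0.0158), and Pxn (1.07, adjusted p = 0.00142) and Zyx (1.03, adjusted p = 0.00779) were higher in stabilized cortex, where 11.8% of all genes were called (0.106% in choroid plexus input). WT cerebellum ECs, at 2715 and 3861 CPM of Fn1 and 176 and 240 CPM of Vcam1, were above WT anterior and posterior pituitary ECs in both genes, as they were in Itga4. Of the 17 tested ligands, 4 were called higher and 3 lower in cerebellum than in anterior pituitary (Agrn, Fn1, Vcam1 and Vtn higher, Hspg2, Ltbp1 and Ntn4 lower, 5.26% of all genes called). Against posterior pituitary 3 were called higher and 3 lower (Fn1, Vcam1 and Vtn higher, Hspg2, Ltbp1 and Mcam lower, 4.4% of all genes called).

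ATAC-seq, which cuts accessible chromatin with a transposase, was read from the peaks deposited for each GFP-positive library (20634 to 45040 peaks). A peak was called gained when it was found in both stabilized and neither WT library of a tissue, and lost in the reverse case, so no test is involved. Genome-wide, 5284 peaks were gained and 694 lost in cerebellum, 2828 and 2014 in anterior pituitary, and 7950 and 571 in posterior pituitary. Within 100 kb of the members, 43 peaks were gained and 6 lost in cerebellum, 23 and 14 in anterior pituitary, and 78 and 3 in posterior pituitary. Members with at least 1 gained peak numbered 29, 13 and 32 of 38, while 46.1%, 27.4% and 52.2% of protein-coding genes had 1. Those with at least 1 lost peak numbered 7, 11 and 3, against 6.57%, 20.5% and 4.67% of protein-coding genes. The members' gene bodies are longer, at a median of 64.1 kb against 17.4 kb for protein-coding genes, and the part of gene length in these shares was not tested. Posterior pituitary libraries held 21050 and 20634 peaks (WT) and 28926 and 38583 peaks (stabilized), so more were called there in the stabilized mice at large.

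Within 1 kb of an annotated start, peaks were gained at Itgb5, Lama5 and Lamc1 in cerebellum (3.72% of protein-coding genes had such a gain) and at Itga4, Itgax and Lama5 in posterior pituitary (4.78%), with 0 members in anterior pituitary (0.911%). Peaks were lost at Itga2 and Itga9 in cerebellum (0.279%), at Itga7 in anterior pituitary (1.02%) and at 0 members in posterior pituitary (0.215%). Itga4 and Itgax had no start peak in WT posterior pituitary, whereas the gains at Lama5 and Lamc1 were further peaks beside a start peak already called in both WT libraries (Lama5 at 5.41 and 5.5 in cerebellum and 5.02 and 5.05 in posterior pituitary, Lamc1 at 11.44 and 10.15 in cerebellum), and Itgb5 had a start peak of 3.0 in 1 WT cerebellum library. At the Itga4 start, the cerebellum libraries had fold enrichments of 4.98 and 5.67 (WT) and 6.11 and 5.71 (stabilized). It was 4.15 and 4.83 against 5.17 and 6.8 in anterior pituitary, and in posterior pituitary no peak was called in WT and peaks of 4.13 and 5.94 in stabilized libraries. WT posterior pituitary was thus the group without a called Itga4 start peak, although its Itga4 RNA (2.87 and 1.28 CPM) overlapped that of WT anterior pituitary (4.02 and 2.42 CPM), which had the peak. Itga9 had start peaks of 4.2 and 3.31 in WT cerebellum and none in stabilized cerebellum, where its RNA went from 2.23 and 11.9 CPM to 1.33 and 0.227 CPM (-3.13, SE 0.77, adjusted p = 0.118). In the anterior pituitary Itga9 peaks reached 6.75 and 6.89 in WT and 9.18 and 8.71 in stabilized libraries. No start peak was called at Lamb1 in the 4 cerebellum libraries, while WT anterior pituitary had 3.43 and 4.26 and stabilized anterior pituitary 5.11 and 5.41. Itga1 had a start peak in each of the 12 libraries, at 8.0 to 13.67, its fall in posterior pituitary RNA included. Itgax had start peaks in stabilized posterior pituitary alone (4.13 and 4.26), where its RNA was at 27.4 and 7.26 CPM, and none in stabilized anterior pituitary, where its RNA was at 15.2 and 12.5 CPM.

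**Figure D5:**
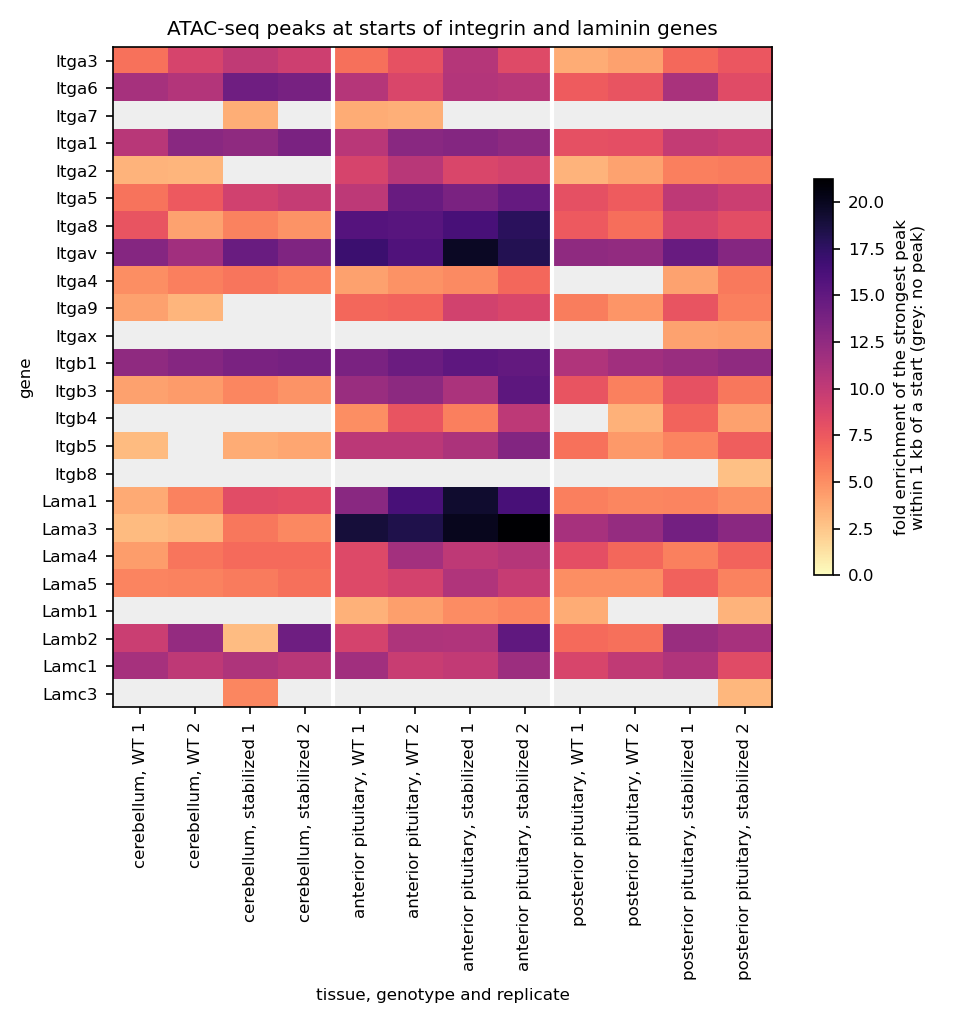
Fold enrichment of the strongest peak within 1 kb of an annotated start, for each member with any such peak, in the 12 ATAC-seq libraries; grey marks no called peak. Itga4 lacks a peak in both WT posterior pituitary libraries and has 4.13 and 5.94 in the stabilized ones, and Itga9 lacks a peak in both stabilized cerebellum libraries.

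Beta-catenin acts on genes through TCF and LEF proteins, whose motif has the core TCAAAG. These 6 letters were searched on both strands (CTTTGA on the plus strand is the reverse match) within 100 bases of each peak summit. They were found in 6 of 43 peaks gained near members in cerebellum (14.0%, with 18.1% of all gained and 12.1% of all WT peaks), in 8 of 23 in anterior pituitary (34.8%, with 28.2% and 9.41%) and in 16 of 78 in posterior pituitary (20.5%, with 21.4% and 7.05%). The members' shares were thus near those of all gained peaks in each tissue. Peaks with a match that were gained in both pituitary lobes lay near Itga3, Itga9, Itgb6 and Lamb1. Of these, the Itga9 and Lamb1 windows are shown because they lie in introns of members whose RNA was measured in both lobes, and the Itga4 stretch because it lies directly before the gene's start and within the peak gained in posterior pituitary. All 3 are the plus strand of GRCm38.p6 (RefSeq), 5′ to 3′, with matches to TCAAAG or CTTTGA in capitals. Their positions are chr9:118821664-118821864 for Itga9, chr12:31302306-31302506 for Lamb1 and chr2:79255359-79255425 for Itga4, and the Itga4 stretch holds 0 matches.
Itga9 intron: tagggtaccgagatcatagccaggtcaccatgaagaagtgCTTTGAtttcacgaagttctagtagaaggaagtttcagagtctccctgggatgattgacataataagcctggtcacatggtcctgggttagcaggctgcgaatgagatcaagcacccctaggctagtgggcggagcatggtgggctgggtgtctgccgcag
Lamb1 intron: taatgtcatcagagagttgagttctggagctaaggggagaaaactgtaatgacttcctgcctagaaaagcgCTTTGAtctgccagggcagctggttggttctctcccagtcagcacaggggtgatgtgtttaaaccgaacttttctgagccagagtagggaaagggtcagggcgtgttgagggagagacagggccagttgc
Itga4 start: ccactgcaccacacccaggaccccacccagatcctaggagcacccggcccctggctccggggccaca
The posterior pituitary summit of the Itga9 peak lies 14480 bases from the nearest annotated start, and the peak had fold enrichments of 6.08 and 2.87 in posterior and 7.56 and 6.24 in anterior pituitary stabilized libraries. For the Lamb1 peak, 37109 bases from the nearest start, they were 3.91 and 2.77 in posterior and 6.08 and 3.86 in anterior pituitary. Near neither peak did the RNA rise in both lobes: Itga9 measured 81.5 and 118 CPM in WT and 117 and 95.3 CPM in stabilized anterior pituitary and 79.0 and 130 against 51.6 and 52.3 CPM in posterior pituitary, and the genotype difference of Lamb1 was not called in either lobe.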

How the data were processed

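RNA was measured in 40 libraries (24 sorted, 16 RiboTag) and open chromatin in 12 ATAC-seq libraries. The authors amplified cDNA (NuGEN Ovation), sequenced single ends and ran Salmon 0.10.2 with sequence, GC and position bias correction on Ensembl transcripts. The deposited estimated counts per transcript and the deposited TPM were summed here to genes with GENCODE M21 (GRCm38), which matched 130338 of 130740 transcripts (99.69%). Strand marking is not given in the sources used here, so overlapping antisense genes cannot be separated. The authors called ATAC-seq peaks per library with MACS2 2.1.1.20160309 after Bowtie2 2.3.2 and deposited their fold enrichment, a ratio. The deposited −log10 q had been filtered by the authors to above 2, with fold enrichment above 2. kallisto 0.44.0 also appears in the submitters' processing notes and its output was not used here.

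Gene sums were rounded and fitted with edgeR 4.0.16 in R 4.3.3 (TMM scaling, default expression filter, quasi-likelihood test, Benjamini-Hochberg adjustment). One fit held the 12 GFP-positive libraries (17915 genes), one the 12 GFP-negative (19612), one the 8 bound (16775), one the 8 input (16085), and enrichment was taken from all 24 sorted (21343) or all 16 RiboTag libraries (18241). In the EC and bound fits 33 of 38 members passed the expression filter, in part through the groups where they are high. Levels between genes are normalised CPM divided by the length of the longest protein-coding transcript. TPM was used to choose members over 50 TPM in a WT EC group, whose levels are named. It can part from CPM: Lamb2 in WT anterior pituitary ECs had 42.7 and 380 TPM beside 162 and 170 CPM. Fold changes against a group with no read are bounds against 3 reads per library. Medians at the bound leave out members with no read in either group, or with a level below that floor in the other. Depth ran from 6409013 to 21399125 reads in bound and from 12157485 to 37529274 in sorted libraries, and it limits the genes of few reads.

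Values in each library are given for members called in at least 1 of 9 EC comparisons, in order of role. The values of 1 member are not reported here, though it is counted among the members. Other members are given by counts and ranges. Partners are given by counts with the called ones named between genotypes of a tissue. Between WT tissues this was done only for the ligands in cerebellum against each pituitary lobe, and other partner calls between WT tissues or fractions are not listed. The members, the marker and partner lists and these rules were chosen with earlier results of these data known. Per the study's methods the libraries of a group are biological replicates, pools of mice in the pituitary. The p-values rest on a spread between replicates that was estimated over all groups of a fit together, not on the 2 samples of a group alone. By those methods the input is taken from the homogenate used for the pull-down, and both lobes come from the same mice. GFP-positive and GFP-negative cells are sorted from the same dissociated tissue. The labels give replicate numbers and do not state that equal numbers mark equal material, so the pairs are an assumption. These comparisons were fitted unpaired, with a replicate block within each shared source as an alternative. DESeq2 1.42.0, effective-length offsets, no expression filter, fits to the compared groups alone, a replicate block, and leaving out each library were tried as alternatives. Python 3.11.15, pandas 2.3.3, numpy 2.4.6, pysam 0.24.0 and matplotlib 3.10.9 were used for sums, peaks and plots.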

Additional observations from a re-analysis of the deposited data

Results flagged for a closer look

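The genotype effect differed between tissues in 3 members by a test of the difference itself. For Lamb1, the stabilized-minus-WT log2 fold change in anterior pituitary ECs exceeded that in cerebellum ECs by 5.94 (SE 1.14, edgeR adjusted p = 0.0418), with each stabilized anterior pituitary library above both WT libraries and each stabilized cerebellum library below both. Leaving out any 1 library kept the call, at 4.23 to 7.31. For Itga1, the effect in posterior pituitary ECs was below that in cerebellum ECs, with a difference of -2.08 (SE 0.4, adjusted p = 0.0341). It lay between -2.43 and -1.6 on leaving out any 1 library, and was not called without stabilized posterior pituitary replicate 1 (-1.94, adjusted p = 0.0873). For Lama5, the effect in choroid plexus bound RNA was below that in cortex bound RNA, with a difference of -2.42 (SE 0.48, adjusted p = 0.0404). It was not called without WT choroid plexus replicate 1 (-2.12, adjusted p = 0.07), stabilized choroid plexus replicate 1 (-2.11, adjusted p = 0.0731), stabilized cortex replicate 1 (-2.17, adjusted p = 0.105) or stabilized cortex replicate 2 (-2.43, adjusted p = 0.062). Summed choroid plexus epithelial markers moved in WT cerebellum replicate 2 (99.2 CPM) with Lamb1 (119 CPM), endothelial markers moved between genotypes in posterior pituitary (15694 and 18478 to 7645 and 9009 CPM) and in cortex (3210 and 1377 to 4665 and 4713 CPM). Fibroblast markers moved as Lamb1 did, from 26.2 and 34.5 to 3.43 and 0.773 CPM in cerebellum ECs and from 38.7 and 21.6 to 86.1 and 55.3 CPM in anterior pituitary ECs. Epithelial markers in choroid plexus bound RNA went from 42699 and 42197 to 25779 and 23029 CPM. The part of these markers in the 3 differences was not tested.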

How the results depend on the processing

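With 2 libraries a group, small changes of processing moved counts of calls. Over 41 called fold changes (genotypes, WT tissues and interactions) and the alternatives tried for them, 354 of 425 values kept both direction and call and 71 kept the direction and lost the call. Over the 68 other called fold changes (between fractions, and Itga4 in cortex input), 547 of 609 values kept both and 62 lost the call, with 0 turned in direction. In the stabilized-minus-WT comparisons, DESeq2 called 5 members in cerebellum ECs (edgeR 2), 5 in anterior pituitary (0), 8 in posterior pituitary (2), 9 in cortex bound (4) and 2 in choroid plexus bound RNA (0), while it called 4.3%, 2.78%, 6.68%, 11.2% and 3.82% of all genes. In the background fractions it called 1 in cerebellum, 2 in anterior and 6 in posterior pituitary GFP-negative cells and 2 in choroid plexus input, each 0 by edgeR. Without an expression filter the EC counts were 6, 6, 9, 8 and 2 in the same order (2.25%, 1.75%, 3.76%, 8.11% and 3.32% of all genes). With effective lengths as offsets they were 1 in cerebellum, 1 in posterior pituitary (neither Itga1 nor Itga4, whose calls ended) and 2 in cortex bound RNA. Fits to the compared groups alone gave 0 in cerebellum, 0 in posterior pituitary and 1 in choroid plexus bound RNA. Between WT tissues, the offsets left 3 of 8 members for cerebellum against anterior pituitary and 3 of 5 against posterior pituitary, where DESeq2 gave 9 (9.75% of all genes) and the compared groups alone 2. Between the pituitary lobes (1 by edgeR), DESeq2 gave 7 (5.81% of all genes), no filter 7 (2.92%) and the compared groups alone 2. Interactions numbered 17 by DESeq2 (2.51% to 5.98% of all genes in the 3 contrasts) and 21 without a filter (1.61% to 3.28%) in sorted ECs (2), and 2 (6.55%) and 3 (5.2%) in bound RNA (1). A stricter peak threshold gave 3 lost peaks in cerebellum (against 6), 3 in anterior pituitary (14) and 49 gained peaks in posterior pituitary (78). For the offsets and for the fits to the compared groups alone no share of all genes is given here, so those counts cannot be set against it. The causes were not tested.

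Leaving out each library in turn gave 2 to 5 calls in cerebellum ECs, 0 to 2 in anterior and 0 to 10 in posterior pituitary, 2 to 9 in cortex bound and 0 to 1 in choroid plexus bound RNA. WT tissue comparisons gave 5 to 7 (cerebellum and anterior pituitary), 3 to 6 (cerebellum and posterior pituitary), 1 to 5 (the lobes) and 14 to 19 (cortex and choroid plexus). Sorted ECs against GFP-negative cells and bound RNA against input gave 10 to 13 in cerebellum, 9 to 12 in anterior and 13 to 16 in posterior pituitary, 10 to 19 in cortex and 7 to 10 in choroid plexus. The background fractions gave 0 to 2 in cerebellum, 0 to 1 in each pituitary lobe, 1 to 3 in cortex input and 0 in choroid plexus input. For interactions, an alternative chosen after seeing the data, the ranges were 1 to 11 in sorted ECs and 0 to 4 in bound RNA. These ranges stand without a share of all genes, and each such fit left 1 library in 1 group. Some counts from all libraries lay above their range. They were 8 between cerebellum and anterior pituitary, 15 for anterior pituitary ECs against GFP-negative cells and 11 for choroid plexus bound RNA against input. Between groups of the EC fit and of the bound fit the deviations of same-numbered replicates correlated at -0.02 to 0.04 and -0.07 to 0.05. Between fractions of the same tissue and genotype they correlated more in places, at 0.13 in WT cerebellum, 0.11 in WT posterior pituitary, 0.22 in stabilized cortex and 0.12 in choroid plexus of each genotype, and at 0.0 to 0.08 in the others. A replicate block over all libraries changed the calls between the lobes from 1 to 2, those in cortex bound RNA from 4 to 3 (Lama3 lost) and those against parenchyma from 15 to 14 in each pituitary lobe (Itgax and Lamb1 lost), with the other counts unmoved. Blocks within each shared source gave 2 between the lobes. Depth limits members of few reads, such as Itga10 in cortex (0 and 7 reads) and Itga4 in WT posterior pituitary (92 and 21).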
